A study of Mus musculus with 42 samples.

Results

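The early transcriptional response of uterine tissue-resident NK (trNK) cells to IL-21 was read from 4 bulk RNA-Seq libraries, 2 made after 6 h of culture in presence of IL-21 and 2 made after 6 h without it. They were chosen by time point and treatment from the labels, out of 16 libraries of the time course and 42 samples of the series. The cells came from wild-type adult C57BL/6 dams at gestation day (gd) 6.5. They were sorted as live CD45+ lineage-negative NK1.1+NKp46+CD49a+CXCR6- cells, and the study describes the cultured cells as the trNK-V subset, which carries little or no 4-1BB and CD55, whereas the sample labels say only trNK. All 4 cultures received IL-15, at 10 ng/ml according to the sample characteristics and the study's methods and at 15 ng/ml according to the treatment protocol of the labels. The cultures with IL-21 received it at 20 ng/ml on top of IL-15. The other time-course groups used below are pairs of libraries at 0, 24 and 72 h, without and with IL-21, from cells of the same origin. Also used are 6 libraries of a separate culture of wild-type C57BL/6 trNK cells for 72 h, with no IL-21, IL-21 at 20 ng/ml, or IL-21 plus 1 µM Stattic per the labels, which give no gestation day for them. The study describes this culture as trNK-V cells from gd6.5 mice, and its methods give IL-15 at 10 ng/ml in the medium. The last are 4 libraries of uncultured wild-type C57BL/6 cells sorted at gd8.5, 2 of trNK-V (CD55low4-1BBlow) and 2 of trNK-T (CD55high4-1BBhigh), fitted together with 2 of the stage between them, trNK-D. The study describes its time course as representative of repeated independent experiments. Whether the 2 libraries of a group are such repeats, or came from separate mice, is not stated in the sources used here, so that the p-values measure the spread between these libraries, which may be technical.

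IL-21 is a cytokine of the common gamma chain family. Its receptor pairs IL-21R with the common gamma chain, and binding activates JAK1 and JAK3, which phosphorylate mainly STAT3. In NK and CD8+ T cells, IL-21 is known as a costimulus to IL-15 that raises granzyme B and perforin, the proteins with which these cells kill. Uterine trNK cells gather in the decidua during early pregnancy, where they are known for cytokine secretion and for their part in remodelling of the spiral arteries.

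The 4 libraries at 6 h held 34713471 to 66468883 counted reads and 14441 to 14793 detected genes each. Libraries of the same group resembled each other (Spearman's rho over the genes tested 0.955 without and 0.976 with IL-21) more than libraries of different groups did (0.894 to 0.931). The cells carried Ncr1 (NKp46) and Klrb1c (NK1.1), which per the study also mark conventional NK (cNK) cells and type 1 innate lymphoid cells (ILC1). They also carried Eomes, which cNK cells share. Itga1 (CD49a), which cNK cells lack, was at 77.2 and 101 CPM (counts scaled to the library total) without and 30.4 and 40.4 CPM with IL-21. Of the 10 trNK markers listed, Tbx21 was low, at 0.817 to 4.41 CPM. Among markers of other cells, all 10 stromal, all 7 neutrophil and all 6 erythroid markers stayed under 1 CPM in each library, and 4 of 6 endothelial and 4 of 6 epithelial markers did. Pecam1 was at 37.8 to 53.8 CPM without and 26.1 to 27.9 with IL-21, Epcam at 21.7 to 24.4 and 18.7 to 29.6, and Cdh1 at 16.7 to 26.8 and 3.06 to 5.82. Of 10 T cell markers, Cd8a and Cd5 had no read and Cd4, Cd8b1 and Cd3e were under 1 CPM, whereas Trbc1, Trbc2 and Cd3g gave most of a sum of 1191 to 1243 CPM without and 887 to 994 CPM with IL-21. Of 8 B and plasma cell markers, 5 had no read and Ighm gave nearly all of a sum of 314 to 464 CPM without and 203 to 225 CPM with IL-21. The 6 ILC1 markers summed to 196 to 265 CPM without and 121 to 143 CPM with IL-21. The fall of this sum came from Ltb, called lower, at 205 and 154 CPM without and 40.6 and 43.7 CPM with IL-21. Cxcr6, whose protein the sort excluded, was at 49.8 and 27.5 CPM without and 63.8 and 74.0 CPM with IL-21 and was not called. The 8 cNK markers summed to 1135 to 1315 and 982 to 1052 CPM, mostly Klra8. The 6 mast cell markers summed to 6.09 to 9.15 and 1.21 to 1.24 CPM, mostly Kit. The summed level of the 12 macrophage and monocyte markers was 31.0 to 41.3 CPM without IL-21 and 15.7 to 24.1 CPM with it, mostly from Cd68. The part of these cells in the results below was not tested. Mitochondrial transcripts took 3.57% and 3.78% of the reads without IL-21 and 2.54% and 1.90% with it, and the part of this difference in the results below was not tested. The libraries at 72 h stood apart from those of the other times and from each other, with 1010 genes over 2-fold apart between the 2 libraries without IL-21, as against 140 genes between the 2 at 6 h. All 16 libraries share the estimate of the spread in the fit.

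Of 3503 genes with enough reads to be tested (over 10 RPKM, reads scaled to exon length and library size, in both libraries of at least 1 group), 69 differed between 6 h with and 6 h without IL-21, which is 1.97% of the genes tested. A gene is called here when its adjusted p in edgeR's quasi-likelihood test is below 0.05 and its fold change is above 2. More genes fell than rose, with 48 genes lower (1.37%) and 21 genes higher (0.599%) in presence of IL-21. For each of the 69 genes both libraries with IL-21 lay on one side of both libraries without it. That alone was common, since 28.8% of all genes tested lay wholly above and 29.8% wholly below. With libraries labelled IL-21 and no IL-21 at 0 h, the same edgeR test called 0 genes (0%), with 110 genes at an unadjusted p below 0.05 against 429 genes at 6 h, and neither DESeq2 nor limma-voom called a gene at 0 h. The sources used here do not say what IL-21 at 0 h stands for, so whether this pair is an untreated baseline is unknown. Both counts at an unadjusted p turned on single libraries. At 0 h the count was 46 without replicate 1 of the group without IL-21, 270 without replicate 1 of the group with IL-21 and 327 without the libraries at 72 h, and at 6 h it was 228 to 311 with 1 library left out and likewise rose without the libraries at 72 h. The 2 libraries labelled IL-21 at 0 h differed by over 2-fold at 513 genes. The 69 calls kept their direction in all 15 other fits made. These fits reuse the same 6 h libraries, in which the groups do not overlap for these genes, so the direction could hardly change. In each of the fits 6 genes (Klrb1c, Bcl2, Bnip3l, Cd7, Qpct and Lilr4b) were called.

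**Figure D1:**
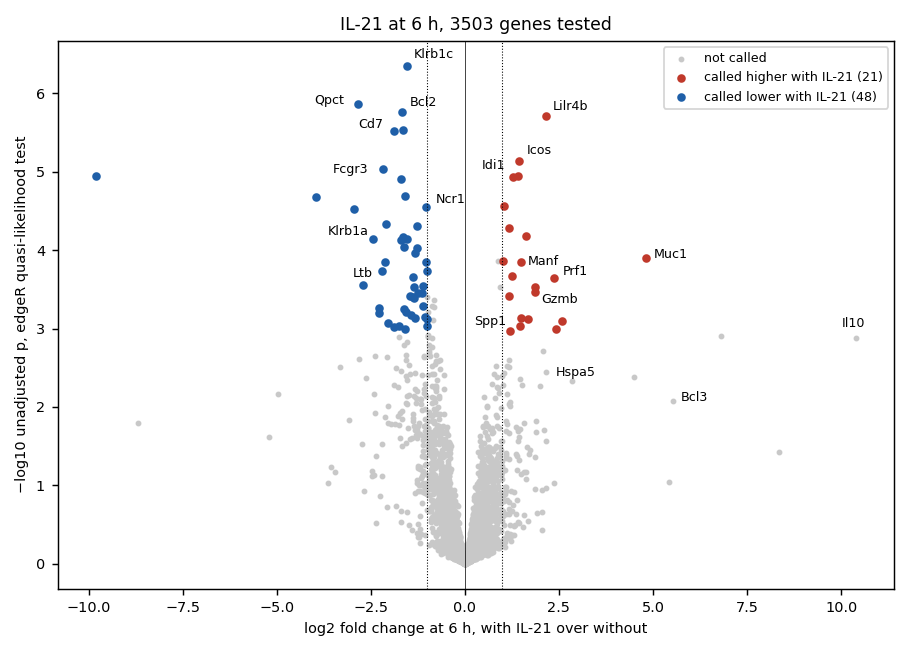
Volcano plot of the 3503 genes tested at 6 h, with the log2 fold change (with IL-21 over without, 2 libraries each) on the x axis and −log10 of the unadjusted p on the y axis. The 21 genes called higher are red, the 48 called lower are blue, and the dotted lines mark a 2-fold change; Il10, Bcl3 and Hspa5 lie to the right but were not called, and the leftmost blue point is a predicted gene.

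The number of calls depended on the libraries in the fit. Without the 4 libraries at 72 h, an alternative chosen after the data were seen, 187 genes were called (71 higher, 116 lower), and 67 of the 69 were among them. Leaving out a single library at 6 h leaves its group with 1 library, whose spread is then taken from the other groups, and called 16 and 15 genes without replicates 1 and 2 of the group without IL-21 and 9 and 13 genes without replicates 1 and 2 of the group with IL-21. The adjusted p without the libraries at 72 h is given below beside many of the genes that were not called. With all libraries, DESeq2 called 127 genes and limma-voom 85, and counts on the lists below stand against the total of the same fit. Other fits lost calls. With edgeR's own filter on low counts, which tests 14888 genes, 11 genes were called, and the adjusted p was 0.0621 for Prf1, 0.0589 for Gzmb and for Icos, 0.127 for Muc1 and 0.259 for Spp1. Of the 69 genes, 55 were called in at least 8 of the 15 other fits, with Spp1 called in 8, Hilpda in 6 and Gab3 in 2 of them.

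Levels are given below in RPKM after scaling by TMM, in the order replicate 1, replicate 2. The rises and falls in this paragraph are among the largest of genes with an established name. Muc1, which encodes a membrane mucin, lay at 0.653 and 0.906 RPKM without IL-21 and 23.1 and 21.1 RPKM with it. Muc1 was 28.3-fold higher with IL-21 (log2 fold change 4.82 ± 0.84 SE, adjusted p = 0.0147). Gadd45g, a growth arrest and stress sensor gene, lay at 67.3 and 74.6 RPKM without IL-21 and 349.7 and 405 RPKM with it. Gadd45g was 5.32-fold higher with IL-21 (log2 fold change 2.41 ± 0.55 SE, adjusted p = 0.0471). Lilr4b, a receptor gene of the leukocyte immunoglobulin-like family, similar in sequence to Lilrb4a with which it may share reads, rose from 9.49 and 9.87 to 46.8 and 38.8 RPKM (log2 fold change 2.15 ± 0.24 SE, adjusted p = 0.00168). In each of these genes the 2 groups were far apart, which their being called made likely. Among the falls, Phactr3, a regulator of protein phosphatase 1, lay at 5.46 and 3.94 RPKM without IL-21 and 0.163 and 0.448 RPKM with it. Phactr3 was 15.5-fold lower with IL-21 (log2 fold change -3.95 ± 0.56 SE, adjusted p = 0.00526). Qpct, the glutaminyl cyclase that modifies the ends of secreted peptides, dropped from 102 and 125 to 15.3 and 16.2 RPKM (log2 fold change -2.84 ± 0.30 SE, adjusted p = 0.00168). Ypel3 (log2 fold change -2.69 ± 0.52 SE, adjusted p = 0.0235) and Pdcd4, an inhibitor of translation (log2 fold change -2.43 ± 0.40 SE, adjusted p = 0.0105), followed.

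**Figure D2:**
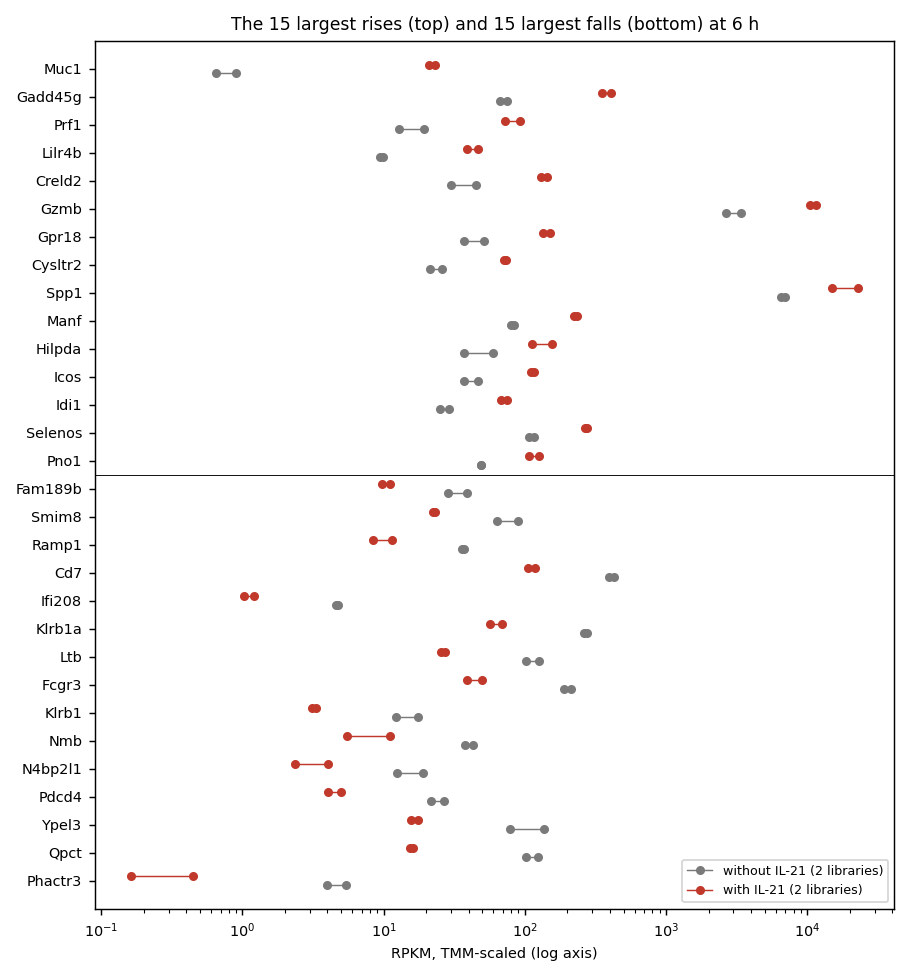
Level of the 15 largest rises (upper part) and the 15 largest falls (lower part) in each of the 4 libraries at 6 h, as TMM-scaled RPKM on a log axis, without IL-21 in grey and with IL-21 in red. Lines join the 2 libraries of a group; in no gene do the groups overlap, and Gzmb and Spp1 are by far the most abundant.

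To show the regions from which some of these genes are transcribed, the promoters of 2 cytolytic genes that rose (Gzmb and Prf1), of a receptor gene that rose in every fit (Lilr4b) and of 2 genes that fell (Klrb1c, which encodes the sorting marker NK1.1, and Ltb, which encodes lymphotoxin beta) are given below from RefSeq on build GRCm38.p6, 250 bases before to 50 bases after the transcription start, 5′ to 3′ on the strand of the gene. STAT proteins bind palindromes of the form TTCNNNGAA, which reads the same on both strands, and each match is in capitals.
Gzmb, chr14:56262285-56262584, minus strand: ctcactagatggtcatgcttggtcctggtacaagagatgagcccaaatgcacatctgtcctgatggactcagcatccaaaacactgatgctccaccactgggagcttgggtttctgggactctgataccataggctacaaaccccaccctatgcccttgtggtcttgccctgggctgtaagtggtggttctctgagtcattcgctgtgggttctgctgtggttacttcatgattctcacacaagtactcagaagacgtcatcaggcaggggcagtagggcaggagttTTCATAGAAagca
Prf1, chr10:61297586-61297885, plus strand: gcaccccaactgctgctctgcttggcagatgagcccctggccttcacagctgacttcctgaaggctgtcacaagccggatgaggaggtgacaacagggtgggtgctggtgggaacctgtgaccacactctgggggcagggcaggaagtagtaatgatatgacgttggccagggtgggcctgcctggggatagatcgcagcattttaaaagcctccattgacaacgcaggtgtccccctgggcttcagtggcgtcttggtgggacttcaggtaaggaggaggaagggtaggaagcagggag
Lilr4b, chr10:51480362-51480661, plus strand: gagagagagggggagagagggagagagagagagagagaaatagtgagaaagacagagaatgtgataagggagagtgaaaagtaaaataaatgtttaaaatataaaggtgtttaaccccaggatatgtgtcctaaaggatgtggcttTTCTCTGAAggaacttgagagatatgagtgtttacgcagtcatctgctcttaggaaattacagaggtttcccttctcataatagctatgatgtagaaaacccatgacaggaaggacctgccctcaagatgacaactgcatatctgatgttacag
Klrb1c, chr6:128788592-128788891, minus strand: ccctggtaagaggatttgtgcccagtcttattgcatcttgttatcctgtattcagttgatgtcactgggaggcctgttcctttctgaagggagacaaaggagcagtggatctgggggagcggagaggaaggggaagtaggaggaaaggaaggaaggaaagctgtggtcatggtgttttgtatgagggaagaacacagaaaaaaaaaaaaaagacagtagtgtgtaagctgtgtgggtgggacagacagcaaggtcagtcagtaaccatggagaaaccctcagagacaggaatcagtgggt
Ltb, chr17:35194257-35194556, plus strand: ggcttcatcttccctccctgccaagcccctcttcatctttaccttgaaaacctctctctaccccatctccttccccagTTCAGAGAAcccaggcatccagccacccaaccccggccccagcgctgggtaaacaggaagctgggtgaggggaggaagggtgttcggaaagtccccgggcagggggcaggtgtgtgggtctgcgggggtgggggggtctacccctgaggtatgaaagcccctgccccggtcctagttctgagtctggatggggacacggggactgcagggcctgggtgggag
Counted from the annotated start, the match of Gzmb begins at 37, that of Lilr4b at -104 and that of Ltb at -172 bases, and the letters are not in the windows of Prf1 and Klrb1c. Of the genes that rose, 18 of 21 had a promoter in the RefSeq table and 2 of them (11.1%) held the motif. Of the genes that fell, 37 of 48 had a promoter and 5 (13.5%) held it, Pdcd4, Ltb, Tgtp2, Dtnbp1 and Zfp945. These shares stood beside 8.06% of the 2520 genes tested that had a promoter and 9.55% of all 27025 genes of the table. For the motif with 1 more free base (N) in its middle, searched in the same way, the shares were 5.56% (1 gene) and 10.8% (4 genes), beside 6.87% of the genes tested and 8.01% of all genes. A match is a description of letters and not a binding site.

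Both of the main effectors of killing rose, while the rest of the cytolytic machinery mostly did not pass the test. Gzmb, which encodes the apoptosis-inducing protease granzyme B, lay at 3405 and 2676 RPKM without IL-21 and 10426 and 11508 RPKM with it. Gzmb was 3.61-fold higher with IL-21 (log2 fold change 1.85 ± 0.36 SE, adjusted p = 0.0235). Prf1, which encodes the pore-forming protein perforin, lay at 19.4 and 12.9 RPKM without IL-21 and 72.8 and 92.9 RPKM with it. Prf1 was 5.13-fold higher with IL-21 (log2 fold change 2.36 ± 0.44 SE, adjusted p = 0.0205). At 0 h the levels without IL-21 were 3967 ± 135 RPKM for Gzmb and 24.1 ± 2.74 RPKM for Prf1 (SD, n = 2), so both genes were above their starting level in presence of IL-21 and not in its absence. Serpinb9, the inhibitor with which killer cells protect themselves from granzyme B, was at 59.5 and 76.2 RPKM without IL-21 and 183 and 192 RPKM with it. edgeR did not call it with all libraries (log2 fold change 1.46 ± 0.54 SE, adjusted p = 0.267) and did without the libraries at 72 h (adjusted p = 0.000546), limma-voom called it (adjusted p = 0.0356), and DESeq2 did not (adjusted p = 0.0822). Gzma lay at 2679 and 2968 RPKM without IL-21 and 4729.9 and 5603 RPKM with it. It was not called either (log2 fold change 0.87 ± 0.46, adjusted p = 0.517, and 0.0227 without the libraries at 72 h). Gzme, one of the clustered granzymes whose reads are hard to tell apart, was at 18.9 and 60.5 RPKM without and 111 and 104 RPKM with IL-21 (adjusted p = 0.287, and 0.0823 without 72 h). Of the 25 genes on the cytolysis list, 17 passed the filter on low values. Of these, 2 were called higher (11.8%, beside 1.97% of all genes tested called) and 0 lower. Their median log2 fold change was 0.07, close to -0.02 over all genes tested. Srgn, the proteoglycan of the granules, was at 1097 and 1424 RPKM without and 887 and 764 RPKM with IL-21, and Lamp2 at 9.46 and 13.3 RPKM without and 22.5 and 26.2 RPKM with IL-21, neither called (adjusted p = 0.270 and 0.244, and 0.0676 and 0.0149 without 72 h).

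Several NK cell receptor genes were lower with IL-21. NK cells weigh signals of activating and inhibitory receptors, and NK1.1 and NKp46 are activating receptors by which these cells were sorted. Klrb1c, encoding NK1.1, lay at 299.6 and 339.6 RPKM without IL-21 and 110.2 and 109.6 RPKM with it. Klrb1c was 2.91-fold lower with IL-21 (log2 fold change -1.54 ± 0.15 SE, adjusted p = 0.00155) and had the smallest p of all genes tested. Ncr1, encoding NKp46, lay at 917 and 904 RPKM without IL-21 and 435 and 459.9 RPKM with it. Ncr1 was 2.03-fold lower with IL-21 (log2 fold change -1.02 ± 0.15 SE, adjusted p = 0.00608), close to the limit of 2-fold. Cd226, encoding the adhesion receptor DNAM-1, lay at 61.6 and 59.1 RPKM without IL-21 and 21.1 and 16.1 RPKM with it. Cd226 was 3.25-fold lower with IL-21 (log2 fold change -1.70 ± 0.28 SE, adjusted p = 0.0105). Klrb1a, a relative of Klrb1c in the same gene cluster, lay at 260.5 and 277 RPKM without IL-21 and 68.5 and 57.1 RPKM with it. Klrb1a was 4.28-fold lower with IL-21 (log2 fold change -2.10 ± 0.33 SE, adjusted p = 0.00895), and Klrb1 also fell (log2 fold change -2.20 ± 0.40 SE, adjusted p = 0.0178). The genes of the Klrb1 cluster are similar in sequence, and how the counting treated reads shared among them is not stated, so their values are less certain. Fcgr3, which encodes the low-affinity Fc receptor through which NK cells recognise antibody-coated targets, dropped from 212 and 190.1 to 39.2 and 49.7 RPKM (log2 fold change -2.18 ± 0.28 SE, adjusted p = 0.00362). Cd7, a surface glycoprotein of NK and T cells, fell likewise from 430.5 and 396 to 106 and 118 RPKM (log2 fold change -1.89 ± 0.22 SE, adjusted p = 0.00179). Icos, a costimulatory receptor of the CD28 family, rose from 36.9 and 46.6 to 112 and 116 RPKM (log2 fold change 1.45 ± 0.18 SE, adjusted p = 0.00362).

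Of the 36 genes on the list of NK receptors and checkpoints, 30 passed the filter, 1 (Icos) was called higher and 4 (Klrb1c, Ncr1, Klrb1a and Cd226) lower, and 24 of the 30 had a log2 fold change below 0, with a median of -0.47. Among all 69 calls 48 were lower, so the direction of these 5 calls is not read as particular to the receptors, and 1.97% of all genes tested were called. DESeq2 and limma-voom called 5 of the receptors each, and edgeR without the libraries at 72 h called 6. Among all 3503 genes tested these fits called 127, 85 and 187. With edgeR's own filter on low counts, 1 of 34 was called, Klrb1c, and the adjusted p was 0.0589 for Ncr1 and Icos and 0.0835 for Klrb1a and Cd226. Nearest by p among the uncalled receptors, Klrb1f was at 259 and 288 RPKM without and 161 and 139 RPKM with IL-21 (adjusted p = 0.0552), Cd96 at 360.0 and 344 RPKM without and 202 and 204 RPKM with IL-21 (adjusted p = 0.0954) and Klrc2 at 53.7 and 64.2 RPKM without and 36.1 and 38.1 RPKM with IL-21 (adjusted p = 0.102). Without the libraries at 72 h the adjusted p was 0.00489 for Klrb1f, 0.0158 for Cd96 and 0.0294 for Klrc2, but their log2 fold changes of -0.86, -0.79 and -0.67 are under the 2-fold limit of a call. The receptors that mark differentiation stages of trNK cells did not pass the test at 6 h. Tnfrsf9, encoding 4-1BB, lay at 294 and 209 RPKM without and 443 and 467 RPKM with IL-21 (adjusted p = 0.428), Cd55 at 35.7 and 42.9 RPKM without and 33.8 and 27.3 RPKM with IL-21 (adjusted p = 0.864) and Klrg1 at 95.7 and 110.3 RPKM without and 67.5 and 96.7 RPKM with IL-21 (adjusted p = 0.861). Both libraries with IL-21 had more Tnfrsf9 and less Cd55 than both without, whereas the groups overlapped for Klrg1. Such separation was common, as 28.8% of all genes tested lay wholly above and 29.8% wholly below, so no direction is read from it. Tigit, an inhibitory receptor that shares ligands with Cd226, lay at 175 and 160.2 RPKM without and 57.5 and 54.9 RPKM with IL-21 (log2 fold change -1.58 ± 0.63, adjusted p = 0.313, and 0.000546 without the libraries at 72 h). Ly6a, encoding the surface protein Sca-1, lay at 4.93 and 13.5 RPKM without and 1139 and 949 RPKM with IL-21. The groups were wide apart, and its adjusted p of 0.0549 missed the threshold (0.000580 without those libraries).

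Secreted factors split in direction. Spp1, which encodes osteopontin and was one of the most abundant transcripts in all 4 libraries, lay at 6568 and 6951 RPKM without IL-21 and 22898 and 15083 RPKM with it. Spp1 was 2.81-fold higher with IL-21 (log2 fold change 1.49 ± 0.32 SE, adjusted p = 0.0392). Ltb, encoding the membrane-bound lymphotoxin beta, lay at 127 and 103 RPKM without IL-21 and 25.7 and 27.1 RPKM with it. Ltb was 4.35-fold lower with IL-21 (log2 fold change -2.12 ± 0.37 SE, adjusted p = 0.0147). Xcl1, a chemokine for cross-presenting dendritic cells, lay at 5065 and 6605 RPKM without IL-21 and 2796 and 2164 RPKM with it. Xcl1 was 2.35-fold lower with IL-21 (log2 fold change -1.23 ± 0.24 SE, adjusted p = 0.0264). Of the 30 cytokines, chemokines and growth factors listed, 14 passed the filter, with 1 called higher and 2 lower and a median of 0.50, beside 1.97% called and a median of -0.02 over all genes tested.

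Il10, which encodes the regulatory cytokine IL-10, had 0 and 2 reads in the libraries without IL-21 and 1446 and 1001 reads in those with it. Pooled over the libraries of a group and scaled to their totals this is a ratio of 1589 (95% exact interval 439 to 13128, which covers counting error only). Its adjusted p was 0.0554, which misses the threshold, and 0.000546 without the libraries at 72 h. Il10 met the level filter in the 6 h group with IL-21, so its rise, which also enters the median of the secreted factors above, is not independent of that filter. Ifng, encoding interferon gamma, lay at 37.4 and 32.2 RPKM without IL-21 and 165 and 192 RPKM with it (log2 fold change 2.36 ± 1.29, adjusted p = 0.538, and 0.0252 without the libraries at 72 h). For both genes the replicates at 6 h were close and the groups apart. The chemokine gene Ccl4 was uneven without IL-21, at 1946 and 681 RPKM without and 4161 and 4066 RPKM with IL-21 (adjusted p = 0.328, and 0.108 without 72 h), and Ccl1 lay at 113 and 98.2 RPKM without and 11.6 and 28.5 RPKM with IL-21 (adjusted p = 0.219, and 0.0856 without 72 h). Tnfsf8, encoding CD30 ligand, lay at 11.9 and 15.6 RPKM without and 5.60 and 5.54 RPKM with IL-21 (adjusted p = 0.161, and 0.0141 without 72 h).

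Most genes of the IL-21 pathway could not be tested at this filter. Of the 19 genes on the list of receptor chains, kinases and STATs, 5 passed the filter (Il2rg and Jak1 of the IL-21 receptor complex, and Il2rb, Il10rb and Stat4 of related pathways) and edgeR, DESeq2 and limma-voom called 0 of them, 0 having an unadjusted p below 0.05, with a median of -0.30. Over all genes tested, edgeR called 1.97% and the median was -0.02, so 0 of 5 is near that share. Jak1 lay at 38.3 and 30.3 RPKM without and 27.1 and 28.6 RPKM with IL-21 and Stat4 at 24.1 and 17.6 RPKM without and 14.1 and 17.9 RPKM with IL-21 (adjusted p = 0.676 and 0.780). Il21r, Stat3, Socs1, Socs3, Cish, Pim1 and Prdm1 did not reach 10 RPKM in both libraries of any group and are given from fits with edgeR's own filter on low counts, with the libraries at 72 h and, second, without them. Il21r, the receptor gene, had 193 and 96 reads without and 693 and 307 with IL-21 (log2 fold change 2.14, adjusted p = 0.777 and 0.190). Stat3, the main mediator, had 877 and 1176 reads without and 1137 and 1129 with it (log2 fold change 0.63, adjusted p = 1 and 0.714).

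Of 28 feedback genes and known targets of STAT3, 9 passed the filter, and the median was 0.42. edgeR called 0 of them higher and 1 lower (11.1%), with 4 higher and 1 lower at an unadjusted p below 0.05. Over all 3503 genes tested, 69 were called (1.97%), 429 had an unadjusted p below 0.05, and the median was -0.02. Of the 9 listed genes, DESeq2 and limma-voom called 3 each, Il10 and Bcl3 higher and Bcl2 lower, and edgeR without the libraries at 72 h called 4, Pim2 being the other. Over all genes tested these fits called 127, 85 and 187. Il10 and Bcl3 were near 0 at 6 h without IL-21 and met the level filter in the 6 h group with IL-21. Their rises, which also enter the median of 0.42, are therefore not independent of the filter. Socs3, the classic feedback inhibitor of STAT3 signalling, had only 56 and 14 reads without and 132 and 90 reads with IL-21 (adjusted p = 1 and 0.842). Prdm1, encoding the transcription factor Blimp-1, had 111 and 128 reads without and 424 and 377 with IL-21 (log2 fold change 2.21, adjusted p = 1 and 0.385), and Pim1, a survival kinase, 262 and 203 against 566 and 443 (adjusted p = 1 and 0.474). Socs1 and Cish, feedback inhibitors that IL-15 also drives, had log2 fold changes of 0.91 and 0.26 (adjusted p = 1 and 1 with, and 0.612 and 0.991 without, the libraries at 72 h). Bcl3, which encodes an atypical inhibitor of NF-kB that is a target of STAT3, lay at 0.217 and 0.503 RPKM without IL-21 and 11.4 and 22.2 RPKM with it (log2 fold change 5.54 ± 1.73, adjusted p = 0.172, and 0.0255 without the libraries at 72 h). Pim2 lay at 22.1 and 9.20 RPKM without and 53.9 and 79.8 RPKM with IL-21 (adjusted p = 0.267, and 0.00656 without those libraries), and Batf, a partner of IL-21 signalling in T cells, at 29.4 and 33.2 RPKM without and 59.9 and 52.5 RPKM with IL-21 (adjusted p = 0.407).

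The member called lower was an antiapoptotic gene. Bcl2, whose protein guards mitochondria against permeabilisation, fell from 11.98 and 14.5 to 4.27 and 4.07 RPKM (log2 fold change -1.67 ± 0.18 SE, adjusted p = 0.00168). Bnip3l, encoding the mitochondrial receptor NIX for mitophagy, fell from 54.7 and 47.8 to 16.1 and 16.6 RPKM (log2 fold change -1.65 ± 0.19 SE, adjusted p = 0.00179). Both genes were called in every other fit. Of the 23 genes of the BCL2 family and apoptosis list, 9 passed the filter, and edgeR, DESeq2 and limma-voom called Bcl2 alone (11.1%). The median was -0.44, beside 1.97% called by edgeR and a median of -0.02 over all genes tested. Without the libraries at 72 h, edgeR called 2, the other being Bcl2a1d, beside 187 of all 3503 genes tested. Bcl2a1d and Bcl2a1b, near-identical copies whose reads may be split between them, were at 35.3 and 52.4 RPKM without and 21.6 and 18.6 RPKM with IL-21 and at 10.9 and 12.4 RPKM without and 4.76 and 6.47 RPKM with IL-21 respectively (log2 fold change -1.12 and -1.05, adjusted p = 0.350 and 0.432, and 0.0495 and 0.0888 without 72 h). Casp8, an initiator of death receptor signalling, was not called (log2 fold change 0.52, adjusted p = 0.756). Pycard, the adaptor of inflammasomes, was lower, at 65.01 and 73.6 RPKM without IL-21 and 29.2 and 27.9 RPKM with it. Pycard was 2.43-fold lower with IL-21 (log2 fold change -1.28 ± 0.20 SE, adjusted p = 0.00916).

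Genes of protein folding in the endoplasmic reticulum (ER), the compartment in which granzymes, perforin and cytokines are made, lay mostly above 0. The ER list counted 22 genes, of which 16 passed the filter. Creld2, Manf and Dnajc3 were called higher, 0 were called lower, 15 of 16 had a log2 fold change above 0, and the median was 1.27, against -0.02 over all genes. Against these 3 calls of edgeR, DESeq2 called 5, limma-voom 4 and edgeR without the libraries at 72 h 9 of the 16, whereas edgeR with its own filter on low counts called 0 of 21 (adjusted p = 0.168 for Creld2, 0.0835 for Manf and 0.161 for Dnajc3). Over all genes tested, edgeR called 1.97% and 1705 of 3503 lay above 0. DESeq2 called 127 of the 3503, limma-voom 85 and edgeR without the libraries at 72 h 187, so part of the higher counts on the list goes with fits that call more genes. Creld2, a disulfide isomerase-like protein, lay at 45.2 and 30.1 RPKM without IL-21 and 143 and 129.5 RPKM with it. Creld2 was 3.62-fold higher with IL-21 (log2 fold change 1.86 ± 0.36 SE, adjusted p = 0.0262). Manf, a secreted ER factor, lay at 80.4 and 83.4 RPKM without IL-21 and 224 and 233 RPKM with it. Manf was 2.79-fold higher with IL-21 (log2 fold change 1.48 ± 0.26 SE, adjusted p = 0.0147). Dnajc3, the cochaperone that restrains the kinase PERK, lay at 27.9 and 28.6 RPKM without IL-21 and 57.6 and 55.96 RPKM with it. Dnajc3 was 2.01-fold higher with IL-21 (log2 fold change 1.01 ± 0.18 SE, adjusted p = 0.0147). The replicates of Manf and Dnajc3 were close to each other, and those of Creld2 without IL-21 less so. The groups were apart in all 3 genes, which their being called made likely. Hspa5, encoding the main ER chaperone BiP, lay at 34.3 and 22.5 RPKM without IL-21 and 98.5 and 156 RPKM with it. It missed the threshold (log2 fold change 2.16 ± 0.59 SE, adjusted p = 0.109, and adjusted p = 0.0162 without the libraries at 72 h), and Hsp90b1 lay at 58.9 and 65.8 RPKM without and 122 and 161 RPKM with IL-21 (adjusted p = 0.0871, and 0.0294 without those libraries). Ddit3, encoding CHOP of the terminal stress response, was at 13.9 and 17.3 RPKM without and 15.1 and 14.2 RPKM with IL-21 (log2 fold change -0.09, adjusted p = 0.981). Selenos, a selenoprotein of ER-associated degradation that is not on the list, rose from 117 and 106 to 267 and 275 RPKM (log2 fold change 1.28 ± 0.17 SE, adjusted p = 0.00362).

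In the list of ribosome biogenesis and Myc targets all 14 members that passed the filter (of 28) had a log2 fold change above 0, with a median of 0.71, but edgeR, DESeq2 and limma-voom called 0 of them, 4 having an unadjusted p below 0.05. Without the libraries at 72 h, edgeR called 2, Nop16 and Srm, beside 187 of all 3503 genes tested. With all libraries, edgeR called 1.97% of the genes tested, 1705 of 3503 lay above 0 and their median was -0.02. Gnl3, encoding nucleostemin, was nearest, at 13.7 and 13.7 RPKM without and 24.7 and 24.8 RPKM with IL-21 (adjusted p = 0.114, and 0.0422 without 72 h), followed by the box C/D protein gene Nop58 at 14.1 and 10.6 RPKM without and 21.2 and 25.3 RPKM with IL-21 (adjusted p = 0.152, and 0.0276 without 72 h). Pno1, a factor for assembly of the small ribosomal subunit that is not on the list, was called, at 48.6 and 49.3 RPKM without IL-21 and 107 and 125 RPKM with it. Pno1 was 2.38-fold higher with IL-21 (log2 fold change 1.25 ± 0.23 SE, adjusted p = 0.0204). Myc averaged 18.4 ± 6.44 RPKM without and 24.6 ± 8.82 RPKM with IL-21 (SD, n = 2, log2 fold change 0.42, adjusted p = 0.856). Eif1a, a translation initiation factor (log2 fold change 1.17 ± 0.23 SE, adjusted p = 0.0275), and Hsd17b10, a mitochondrial dehydrogenase that is also a subunit of mitochondrial RNase P (log2 fold change 1.17 ± 0.18 SE, adjusted p = 0.00920), were called higher as well. Pno1, Eif1a and Hsd17b10 were named because they were called and do not count toward the list.

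Idi1, an enzyme of the mevalonate pathway, lay at 25.2 and 28.9 RPKM without IL-21 and 68.2 and 74.8 RPKM with it. Idi1 was 2.65-fold higher with IL-21 (log2 fold change 1.40 ± 0.19 SE, adjusted p = 0.00362). It was the 1 member called of the 4 that passed on the list of cholesterol and fatty acid synthesis (median 1.38). Over all genes tested, 1.97% were called, 1705 of 3503 lay above 0 and the median was -0.02. The other 3 on that list, Insig1, Fdft1 and Cyp51, had log2 fold changes of 1.16, 2.06 and 1.36 (adjusted p = 0.385, 0.588 and 0.771, and 0.0389, 0.0109 and 0.0660 without the libraries at 72 h). Hilpda, which encodes a lipid droplet protein induced by hypoxia, lay at 37.03 and 59.9 RPKM without IL-21 and 155 and 113 RPKM with it. Hilpda was 2.76-fold higher with IL-21 (log2 fold change 1.47 ± 0.33 SE, adjusted p = 0.0442). Of the glycolysis and hypoxia list 8 of 9 members lay above 0 (median 0.59). edgeR and limma-voom called 0 of them and DESeq2 1, and 1 had an unadjusted p below 0.05. This was Bnip3, a hypoxia-induced relative of Bnip3l, which lay at 17.1 and 20.5 RPKM without and 10.6 and 7.94 RPKM with IL-21 (adjusted p = 0.157, and 0.0448 without 72 h). All 7 members tested of the heat shock list lay above 0 (median 0.67). edgeR and limma-voom called 0 of them and DESeq2 1, and 1 had an unadjusted p below 0.05, the chaperone gene Hspa8 at 174 and 143 RPKM without and 307 and 421 RPKM with IL-21 (adjusted p = 0.175, and 0.0487 without 72 h). In the amino acid response list 6 of 7 members lay above 0 (median 0.78), with 0 called by edgeR, DESeq2 or limma-voom and 0 at an unadjusted p below 0.05.

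**Figure D3:**
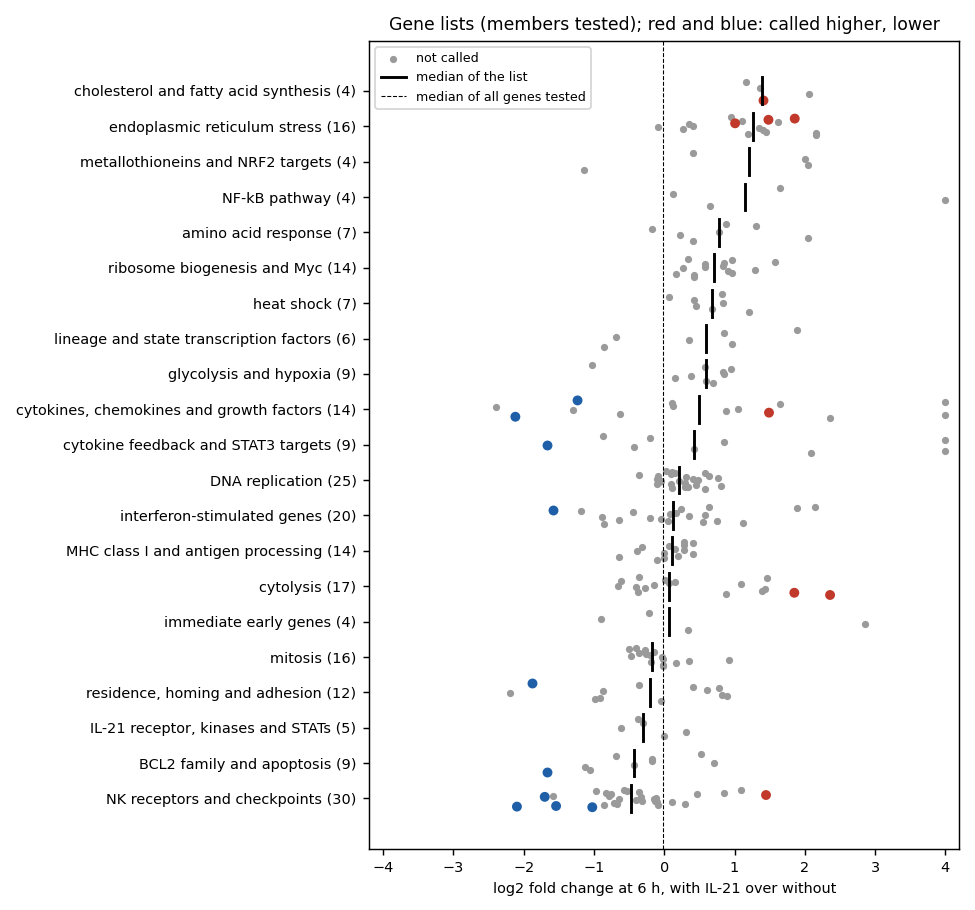
Log2 fold change at 6 h (x axis) of each member tested, by gene list, with the number of members in brackets; grey points were not called, red were called higher and blue lower, black bars are list medians and the dashed line the median of all genes tested. Lists are ordered by median, from NK receptors at the bottom to ER and sterol genes at the top; 5 points beyond 4 are drawn at the edge.

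None of the listed genes of DNA replication and mitosis was called at 6 h. Of 25 DNA replication genes tested and 16 mitosis genes tested, edgeR, DESeq2 and limma-voom called 0, and 0 had an unadjusted p below 0.05. The medians were 0.21 and -0.17, beside -0.02 over all genes tested. edgeR called 1.97% of all genes tested, so 0 calls on lists of this size is near that share and is not read as a result about these genes. Pcna, the sliding clamp of DNA polymerases, lay at 447 and 498 RPKM without and 638 and 517 RPKM with IL-21, Rpa2 at 53.96 and 39.6 RPKM without and 65.2 and 80.9 RPKM with IL-21 and the mitotic cyclin gene Ccnb1 at 41.6 and 41.7 RPKM without and 46.5 and 47.3 RPKM with IL-21 (adjusted p = 0.804, 0.572 and 0.920). For each of these 3 genes the difference between the group means was under 2-fold.

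Interferon-stimulated genes had no common direction. Of 20 tested, 12 lay above 0 and 1 was called (5%, and 4 genes without the libraries at 72 h). Over all genes tested, 1705 of 3503 lay above 0 and 1.97% were called, and without the libraries at 72 h 187 genes were called. The 1 listed gene called was Rtp4, an interferon-induced chaperone of opioid receptors, at 31.4 and 23.7 RPKM without IL-21 and 11.1 and 7.22 RPKM with it. Rtp4 was 2.999-fold lower with IL-21 (log2 fold change -1.58 ± 0.36 SE, adjusted p = 0.0471). Ifitm1 and Ifitm3, antiviral membrane proteins, lay at 35.01 and 48.3 RPKM without and 198 and 112 RPKM with IL-21 and at 24.9 and 27.9 RPKM without and 135 and 98.7 RPKM with IL-21, without passing the test (adjusted p = 0.270 and 0.571, and 0.00871 and 0.0856 without 72 h). Tgtp2, an interferon-inducible GTPase that is not on the list, was called lower (log2 fold change -1.11 ± 0.21 SE, adjusted p = 0.0235), as was Ifi208 (log2 fold change -2.06 ± 0.46 SE, adjusted p = 0.0427). Of 14 genes of MHC class I and antigen processing, edgeR, DESeq2 and limma-voom called 0 and 2 (H2-Q6 and Psme2) had an unadjusted p below 0.05, with a median of 0.11. B2m lay at 21322 and 27333 RPKM without and 19656 and 17339.7 RPKM with IL-21 (adjusted p = 0.807). H2-DMa, a peptide loading factor of MHC class II, was called lower, at 39.1 and 34.4 RPKM without and 14.3 and 13.8 RPKM with IL-21. H2-DMa was 2.62-fold lower with IL-21 (log2 fold change -1.39 ± 0.28 SE, adjusted p = 0.0275).

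Transcription factors that define NK cell lineage and state were largely under the filter. Of 38 listed, 6 passed and 0 were called by edgeR, DESeq2 or limma-voom, with 2 (Batf and Bhlhe40) at an unadjusted p below 0.05. Bhlhe40, a regulator of cytokine production in lymphocytes, lay at 6.28 and 3.40 RPKM without IL-21 and 12.8 and 23.1 RPKM with it (adjusted p = 0.244, and 0.0111 without the libraries at 72 h). Eomes, which trNK cells need, lay at 12.5 and 14.7 RPKM without and 6.90 and 8.16 RPKM with IL-21, Id2 at 2526 and 2965 RPKM without and 3328 and 3674 RPKM with IL-21, Tcf7 at 6.61 and 8.46 RPKM without and 3.56 and 5.76 RPKM with IL-21 and Nfil3 at 17.6 and 7.08 RPKM without and 17.9 and 30.6 RPKM with IL-21 (adjusted p = 0.495, 0.565, 0.628 and 0.476). For residence and homing, 12 of 24 genes passed and edgeR called Cd7 alone (8.33%, beside 1.97% of all genes tested). DESeq2 and limma-voom called 1 each, and edgeR without the libraries at 72 h called 2. The chemokine receptor gene Ccr2 was at 202 and 214 RPKM without and 108 and 119.8 RPKM with IL-21 (adjusted p = 0.0685). The integrin gene Itgb1 was at 65.3 and 45.99 RPKM without and 27.4 and 31.6 RPKM with IL-21 (adjusted p = 0.0821). Among immediate early genes and NF-kB pathway genes, with 4 tested on each list, edgeR called 0, and 1 (Ier3) and 2 (Bcl3 and Ccl4) had an unadjusted p below 0.05. DESeq2 and limma-voom each called 1 gene on each list. Ier3, a stress-induced survival gene, lay at 4.998 and 2.15 RPKM without and 23.2 and 28.4 RPKM with IL-21 (adjusted p = 0.123, and 0.0275 without 72 h) and Nfkbia at 59.4 and 22.98 RPKM without and 49.96 and 79.9 RPKM with IL-21 (adjusted p = 0.777). Of the 4 metallothionein and NRF2 genes tested, edgeR called 0, DESeq2 and limma-voom 1 each, and 2 (Gclm and Mt1) had an unadjusted p below 0.05, Gclm lying at 4.12 and 2.46 RPKM without and 12.7 and 13.7 RPKM with IL-21 and Mt1 at 154 and 207 RPKM without and 89.8 and 74.1 RPKM with IL-21 (adjusted p = 0.135 and 0.200, and 0.0151 and 0.0150 without 72 h).

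A few of the remaining calls follow, picked after their values were seen, with no list of like genes counted. Rgs1 and Rgs2, which switch off G protein signals, both fell, Rgs1 from 21.3 and 27.2 to 9.94 and 8.84 RPKM (log2 fold change -1.37 ± 0.26 SE, adjusted p = 0.0205) and Rgs2 from 24.4 and 22.3 to 7.72 and 7.52 RPKM (log2 fold change -1.62 ± 0.27 SE, adjusted p = 0.0121). Lpar6, a receptor for lysophosphatidic acid (log2 fold change -1.58 ± 0.22 SE, adjusted p = 0.00526), and Gpr34, a receptor for lysophosphatidylserine (log2 fold change -1.02 ± 0.19 SE, adjusted p = 0.0178), fell too. Ramp1, a subunit of the receptor for calcitonin gene-related peptide, fell from 37.3 and 35.9 to 11.5 and 8.36 RPKM (log2 fold change -1.88 ± 0.42 SE, adjusted p = 0.0446). Nmb, which encodes the peptide neuromedin B, lay at 42.6 and 37.98 RPKM without and 11.1 and 5.47 RPKM with IL-21. Nmb was 4.86-fold lower with IL-21 (log2 fold change -2.28 ± 0.48 SE, adjusted p = 0.0336). Cysltr2, a receptor for cysteinyl leukotrienes, rose from 21.5 and 25.8 to 71.01 and 73.4 RPKM (log2 fold change 1.61 ± 0.26 SE, adjusted p = 0.0105), and Gpr18 rose from 51.6 and 36.9 to 135 and 150.4 RPKM (log2 fold change 1.69 ± 0.37 SE, adjusted p = 0.0399). In each of these genes the groups were apart by more than the gap between replicates, which their being called made likely.

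Among abundant transcripts, S100a10 and S100a6, small calcium-binding proteins, fell (log2 fold change -1.33 ± 0.29 SE, adjusted p = 0.0392 for S100a10), S100a6 just past 2-fold at 1155 and 1462 RPKM without and 636 and 671 RPKM with IL-21 (adjusted p = 0.0399). Ms4a4b, a membrane protein of lymphocytes, lay at 834 and 958 RPKM without and 425 and 387 RPKM with IL-21. Ms4a4b was 2.21-fold lower with IL-21 (log2 fold change -1.14 ± 0.23 SE, adjusted p = 0.0264). Pglyrp1, a peptidoglycan recognition protein, lay at 343 and 379 RPKM without and 150.1 and 133 RPKM with IL-21. Pglyrp1 was 2.55-fold lower with IL-21 (log2 fold change -1.35 ± 0.27 SE, adjusted p = 0.0278). Gstm1, a glutathione transferase, lay at 218 and 244 RPKM without and 81.9 and 67.2 RPKM with IL-21. Gstm1 was 3.10-fold lower with IL-21 (log2 fold change -1.63 ± 0.26 SE, adjusted p = 0.0105). Sat1, which breaks down polyamines, lay at 203 and 276 RPKM without and 105 and 86.3 RPKM with IL-21. Sat1 was 2.50-fold lower with IL-21 (log2 fold change -1.32 ± 0.23 SE, adjusted p = 0.0136). Emb, a chaperone subunit of lactate transporters, was higher, at 32.04 and 37.5 RPKM without and 68.1 and 74.9 RPKM with IL-21. Emb was 2.06-fold higher with IL-21 (log2 fold change 1.04 ± 0.15 SE, adjusted p = 0.00608). The tetraspanin gene Tspan13 lay at 155 and 142 RPKM without and 339 and 342 RPKM with IL-21. Tspan13 was 2.29-fold higher with IL-21 (log2 fold change 1.20 ± 0.27 SE, adjusted p = 0.0495). The other genes on the lists of largest falls, N4bp2l1, Smim8 and Fam189b, had log2 fold changes of -2.29, -1.75 and -1.70 (adjusted p = 0.0366, 0.0442 and 0.00362). The remaining called genes with a name, Ptpn4, Gab3, Tmem50a, Zfp512, Dtnbp1, St3gal6, Zfp945, Ms4a6b and Lpxn, were all lower, between -1.62 for Lpxn and -1.01 for Gab3 on the log2 scale. Ms4a4b and Ms4a6b belong to a family of similar genes that can share reads. A further 5 calls were predicted genes or had provisional names and are counted only.

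To ask whether the response at 6 h lasted, the 69 genes were followed in the libraries at 0, 24 and 72 h, which share no sample with those at 6 h. At 0 h the median log2 fold change was -0.02 for the genes that rose at 6 h and -0.06 for those that fell. At 24 h, 18 of the 21 genes that rose were still above 0 (median 0.78) and all 48 genes that fell were still below 0 (median -1.26), while the median over all genes tested was 0.01. At 72 h, 15 of 21 lay above 0 (median 0.77) and 32 of 48 below 0 (median -0.26), beside 0.05 over all genes. Gzmb kept its fold change at 24 h (1.94 ± 0.36, adjusted p = 0.0210) and 72 h (1.94 ± 0.36, adjusted p = 0.00724), and Prf1 had 2.11 ± 0.44 at 24 h (adjusted p = 0.0348) and 0.77 ± 0.42 at 72 h (adjusted p = 0.291). Icos was at 0.12 at 24 h (adjusted p = 0.857), and its level without IL-21 went from 41.7 ± 6.83 RPKM at 6 h to 69.2 ± 4.70 RPKM (SD, n = 2). Klrb1c was lower at 24 h (-1.30 ± 0.15, adjusted p = 0.00383) and less so at 72 h (-0.57 ± 0.14, adjusted p = 0.0330), and Bcl2 likewise (-1.10 ± 0.18 and -0.74 ± 0.18, adjusted p = 0.0159 and 0.0271). Il10 was highest at 6 h. Its level with IL-21 was 18.96 ± 2.46 RPKM at 6 h, 1.71 ± 0.741 at 24 h and 0.592 ± 0.837 at 72 h (SD, n = 2).

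**Figure D4:**
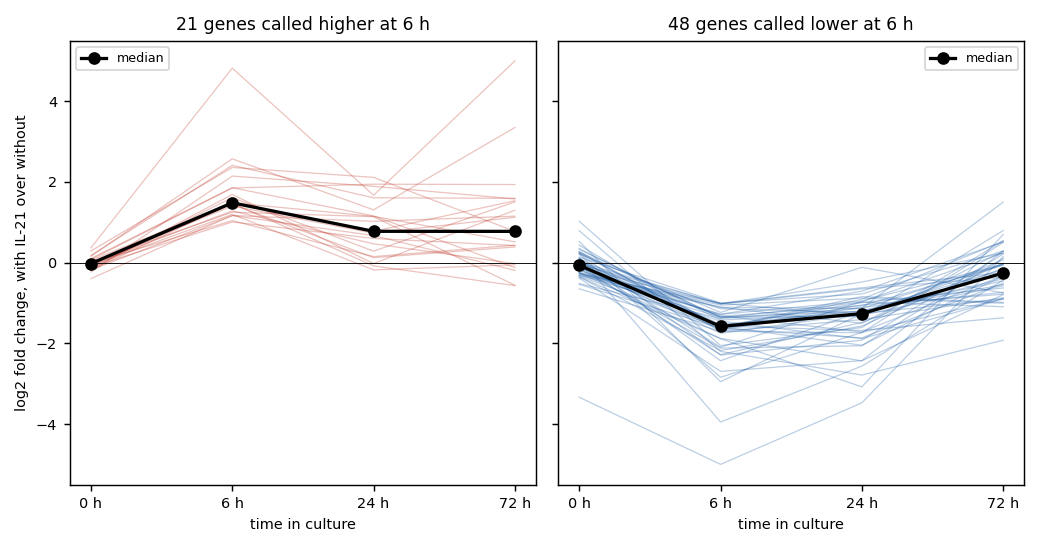
Log2 fold change (with IL-21 over without) at 0, 6, 24 and 72 h of the 21 genes called higher (left) and the 48 called lower (right) at 6 h; thin lines are genes, black points their medians. Both sets start at medians near 0 and are farthest from 0 at 6 h, where they were chosen; the lower set is still at -1.26 at 24 h, and 2 values beyond 5 are drawn at that limit.

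**Figure D5:**
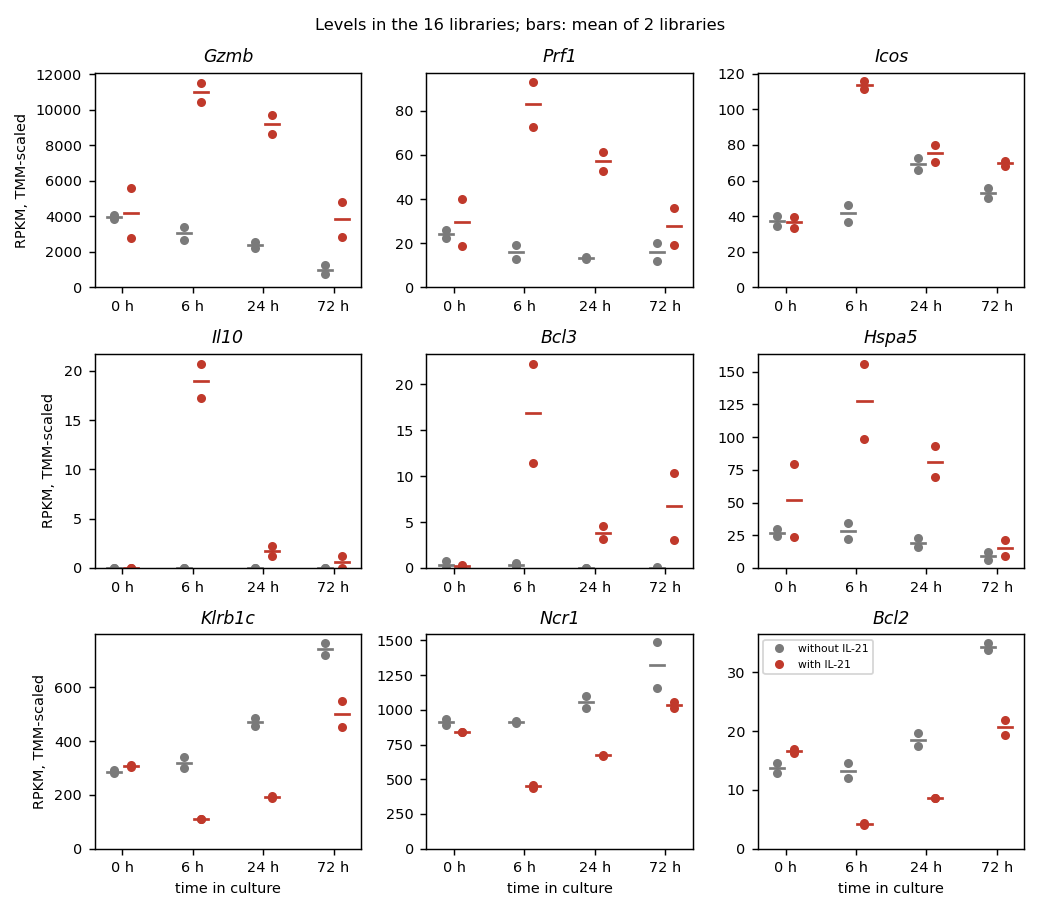
TMM-scaled RPKM (y axis, from 0) of 9 genes in the 16 libraries of the time course, by time in culture, without IL-21 in grey and with IL-21 in red; points are libraries and bars the mean of 2. Gzmb, Prf1, Il10, Bcl3 and Hspa5 are highest at 6 h with IL-21, and Klrb1c and Bcl2 without IL-21 are highest at 72 h.

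The difference between the effects at 6 h and at 24 h was tested itself. edgeR called 0 genes (0%), with 69 genes at an unadjusted p below 0.05, limma-voom 0 and DESeq2 2. A p that misses the threshold does not show that the effects were alike. Between 6 h and 72 h the effect differed for 146 genes (4.17%), of which 20 had a more positive effect at 6 h and 126 a more negative one. With 1 library left out, the count was 761 and 311 without replicates 1 and 2 of 72 h without IL-21, 242 and 276 without replicates 1 and 2 of 72 h with IL-21, 80 and 90 without replicates 1 and 2 of 6 h without IL-21, and 63 and 66 without replicates 1 and 2 of 6 h with IL-21. Cd7 fell at 6 h and had a log2 fold change of 0.70 ± 0.21 at 72 h (adjusted p = 0.0635), with a difference of -2.58 ± 0.31 (adjusted p = 0.000385). Fcgr3 (-2.16 ± 0.39, adjusted p = 0.00900) and Klrb1a (-2.33 ± 0.45, adjusted p = 0.0127) also differed in this way, and Icos and Selenos rose more at 6 h (1.06 ± 0.26 and 1.30 ± 0.24, adjusted p = 0.0421 and 0.00994). These genes were picked for their values at 6 h, which the difference also uses.

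The counts of called genes on further lists also changed with the fit. Among all 3503 genes, edgeR called 69, DESeq2 127, limma-voom 85 and edgeR without the libraries at 72 h 187. With edgeR's own filter on low counts, which called 0.0739% of 14888 genes, 0 genes were called on the lists of cytolysis, cytokines, chemokines and growth factors, cholesterol and fatty acid synthesis, and interferon-stimulated genes. Of the cytolysis genes, edgeR and DESeq2 called 2 each, limma-voom 3 and edgeR without the libraries at 72 h 5, and of the cytokines, chemokines and growth factors 3, 6, 4 and 6 genes were called by edgeR, DESeq2, limma-voom and edgeR without 72 h. Of the genes of cholesterol and fatty acid synthesis, edgeR, DESeq2 and limma-voom called 1 each, and edgeR without 72 h 3. Of the metallothioneins and NRF2 targets these fits called 0, 1, 1 and 2. In the NF-kB, immediate early, glycolysis and hypoxia, and heat shock lists, edgeR called 0, DESeq2 1 and edgeR without 72 h 1 gene each, and limma-voom called 1 gene in the NF-kB and immediate early lists and 0 in the others. On a list of 30 genes taken from the study's text, which is not complete, 18 passed the filter and Prf1, Gzmb and Spp1 were called higher (median 0.74 at 6 h). This is 16.7% of the 18, beside 1.97% of all genes tested. The study itself names Prf1, Gzmb and Spp1 as raised by IL-21 in its own culture. The list is thus not neutral, and its share and median are not read against those of all genes. DESeq2 and limma-voom called 3 each and edgeR without 72 h 5, whereas edgeR with its own filter on low counts called 0 of the 30. Bcl2, which the study's text names too but the list leaves out, was called lower.

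The same genes were read in a separate culture of 72 h with and without 20 ng/ml IL-21 and with IL-21 plus 1 µM Stattic, an inhibitor of STAT3, with 2 libraries per group. All 20 of the genes that rose at 6 h and were measured there lay above 0 with IL-21 (median 1.99), 5 of them called higher. Of 41 that fell, 40 lay below 0 (median -1.26), with 0 called. Over 2846 genes, 1489 lay above 0 (median 0.02), with 9 called higher and 0 lower. Relative to IL-21 alone, with the inhibitor added, 16 of the 20 lay below 0 (median -1.0003), 4 of them called lower. Of the 41, 23 lay above 0 (median 0.21), with 4 called higher and 1 lower. Over all 2846 genes, 1597 lay below 0 (median -0.10), with 41 called higher and 33 lower. The other 1 and 7 genes had too few reads in this culture. Both comparisons share the libraries with IL-21 alone, so they are set side by side only. For Prf1 the values were 4.08 ± 0.44 with IL-21 (adjusted p = 0.0139) and -2.01 ± 0.40 with inhibitor (adjusted p = 0.0453), for Gadd45g 3.78 ± 0.39 and -2.34 ± 0.37 (adjusted p = 0.0136 and 0.0220), and for Spp1 4.05 ± 0.52 and -2.56 ± 0.48 (adjusted p = 0.0325 and 0.0413). Gzmb rose with IL-21 (3.70 ± 0.35, adjusted p = 0.0136), and its change with the inhibitor did not pass the test (-0.98 ± 0.32, adjusted p = 0.155). Klrb1c (-1.70 ± 0.27, adjusted p = 0.0556) and Bcl2 (-1.68 ± 0.33, adjusted p = 0.0921) were below 0 with IL-21 without passing, and the inhibitor moved them by -0.16 and -0.09.

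Freshly sorted subsets at gd8.5 gave a view of the same genes without culture. Between trNK-T, the terminal stage, and trNK-V, 14 of 19 measured genes that rose at 6 h had a log2 fold change above 0 (median 1.38), 13 of them called higher in trNK-T and 2 others called lower. Of 42 measured genes that fell, 36 had a log2 fold change below 0 (median -1.57), with 24 called lower and 1 called higher. Over all 2969 genes, 1717 lay above 0 (median 0.15), and 259 were called higher and 284 lower. The other 2 genes that rose and 6 that fell had too few reads here. Gzmb (2.70 ± 0.35, adjusted p = 0.00422), Spp1 (3.49 ± 0.21, adjusted p = 0.000569), Manf (1.91 ± 0.22, adjusted p = 0.00342) and Pno1 (2.33 ± 0.30, adjusted p = 0.00410) were higher in trNK-T. Ltb (-6.63 ± 0.57, adjusted p = 0.00176), Cd7 (-3.84 ± 0.44, adjusted p = 0.00359), Klrb1a (-3.07 ± 0.54, adjusted p = 0.00885) and Bcl2 (-1.69 ± 0.24, adjusted p = 0.00505) were lower. Fcgr3, Emb and Gpr18 went the other way, Fcgr3 being higher in trNK-T (1.17 ± 0.28, adjusted p = 0.0206) and Emb and Gpr18 lower (-2.29 ± 0.21 and -1.84 ± 0.41, adjusted p = 0.00176 and 0.0180). These subsets were defined by surface markers and not by treatment, and the values are given as a description beside those at 6 h.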

How the data were processed

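Bulk RNA-Seq libraries of sorted uterine trNK cells were analysed from the gene counts that the authors deposited. Per the labels, RNA was amplified by a full-length single-cell kit. The submitters' processing notes name HISAT2 2.1.0, featureCounts and mm10, and the study's methods name HISAT2 with RSEM and another amplification kit. Whether strand was used, and how reads shared among paralogs were treated, is not given in the sources used here.

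Deposited counts, whole numbers of reads per gene, were scaled by TMM and tested by edgeR 4.0.16 (glmQLFit and glmQLFTest, R 4.3.3) in 1 fit over the 16 time-course libraries, 1 coefficient per group. As in the study, a gene entered (3503 did) if each library of at least 1 group had over 10 RPKM. A gene low at 6 h without IL-21, such as Muc1, Il10 or Bcl3, could thus enter through a group with IL-21. Rises of such genes are not independent of the filter. RPKM used the exon length that the count table gives. A call needs a Benjamini-Hochberg adjusted p below 0.05 over all genes tested and a fold change over 2. Adjusted p-values in the text are from this test unless another is named. The SE was taken as the size of the log2 fold change over the square root of the F statistic of the test. It follows from that test and was not estimated separately. Values after ± are such SE unless SD is named. The inhibitor culture (4159 genes) and the subsets at gd8.5 (4682 genes) were fitted separately. The genes named are the 15 largest rises and 15 largest falls among called genes without overlap between groups, called members of the gene lists, up to 4 uncalled members of each with the smallest p, the genes the study's text names, and known cytokine response genes; predicted genes were counted only, and genes named outside this rule were chosen after their values were seen. Members, lists and rules were chosen with earlier results of these data known. Alternatives were DESeq2 1.42.0, limma-voom (limma 3.58.1), other scalings and filters, a replicate block and leaving out libraries. On simulated counts for the 3503 genes, the 6 h test recovered 33% of changes of 1.5 and 54% of changes of 2 on the log2 scale, and 4 of 91 calls were unchanged genes. The counts were drawn as independent libraries from the model that the test fits, with the spread estimated over all 16 libraries. These shares hold under that model only and do not cover replicates that may be technical. Replicates did not agree within sampling noise in any group, so none was treated as a duplicate. Counting intervals and floors cover counting error only. Some results are not reported here.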

Additional observations from a re-analysis of the deposited data

Results flagged for a closer look

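The effect of IL-21 differed between 6 h and 72 h, by the test of the difference itself, for 24 of the 126 genes named by rule, beside 4.17% of all genes tested. The 126 include the largest rises and falls at 6 h, whose values enter the difference, so that their share is not read against that of all genes. None of the 126 was called for 6 h minus 24 h. The values are log2 differences, 6 h minus 72 h, with adjusted p from 1.38e-06 to 0.0421. No group has more than 2 libraries, so that single libraries were not screened as outlying. Among 13 genes called at 6 h, the difference was 2.04 for Hilpda, 1.06 for Icos, 1.30 for Selenos, 1.81 for Pno1, -3.52 for Phactr3, -1.95 for Qpct, -2.99 for Ypel3, -2.16 for Fcgr3, -2.23 for Ltb, -2.33 for Klrb1a, -2.60 for Ifi208, -2.58 for Cd7 and -2.20 for Fam189b. In 11 genes not called at 6 h it was -13.59 for Gzme, -1.68 for Cd96, -1.81 for Tnfrsf18, -2.18 for Itgax, -10.65 for Gins1, -5.47 for Nusap1, -12.70 for Ndc80, -8.44 for Ccnb1, 1.51 for Gnl3, -7.89 for Ier3 and -2.05 for Klrg1. The values beyond 5 in size belong to genes that were near 0 reads at 72 h without IL-21 and depend on the prior count of the fit. The 2 libraries at 72 h without IL-21 differed by over 2-fold at 1010 genes, and their part in these differences was not tested.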

How the results depend on the processing

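The count of 69 genes called at 6 h stayed between 57 and 85 with RLE or upper quartile scaling, limma-voom, no filter, no fold threshold or a replicate block. Without a filter 72 genes were called, of which 34 were among the 69. The count was 127 with DESeq2, 11 with filterByExpr (14888 genes tested), 245 with only the 6 h libraries in the fit and, in an alternative chosen after the data were seen, 187 without the libraries at 72 h. With 1 library left out at 6 h it was 9 to 16. The count for 6 h minus 72 h (146) was 345 with DESeq2, 368 with filterByExpr, 873 with no filter, 54 with only the libraries compared and 63 to 761 with 1 library left out. For 6 h minus 24 h (0) it was 2 with DESeq2, 4 with no filter and 5 with only the libraries compared, and for the label at 0 h (0) it was 3 with no filter; with 1 library left out both were 0. Replicate numbers did not pair the samples: deviations correlated by over 0.1 in 9 of 28 group pairs (range -0.34 to 0.41), and at 6 h by -0.20. With the replicate block 57 genes were called at 6 h, 55 of them shared, 135 for 6 h minus 72 h and 0 otherwise. With crossed numbers, also chosen after the data were seen, 55 were called at 6 h. Of the 37 called genes named, 412 of 592 values under the alternatives stayed past the threshold, 180 did not and 0 reversed. The alternatives reuse the same 6 h libraries, so a reversal was unlikely from the start. Of the 89 named genes not called, 84 of 1424 values were past the threshold and 5 changed sign.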

Other observations

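Some genes stayed under 10 RPKM in at least 1 library of every group and so outside the comparison above. With edgeR's own filter on low counts and without the 4 libraries at 72 h, a fit chosen after the data were seen, 87 of 14888 genes were called at 6 h, and 8 of them were outside the 3503. Ctla4, which encodes an inhibitory receptor of activated T cells, was the 1 of these that was higher. It had 0 reads in both libraries without IL-21 and 470 and 971 reads with it, at least 624-fold higher when 3 reads over the group are taken as the floor (adjusted p = 0.0213, against 0.133 with the 72 h libraries). The other 7 were lower. Hivep3, a zinc finger transcription factor gene, had 3647 and 4753 reads without and 1569 and 785 with IL-21 (log2 fold change -1.47 ± 0.26, adjusted p = 0.0346). Coq8b, a gene of coenzyme Q synthesis, had 1472 and 1384 reads without and 250 and 72 with it (log2 fold change -2.86 ± 0.41, adjusted p = 0.0140). Tmem131l, Itih5, Bbs9, Rabgap1l and 1 predicted gene made up the rest. Itga1, which encodes the residence marker CD49a used in the sort, had 4726 and 6722 reads without and 1870 and 1402 with IL-21 (log2 fold change -1.38 ± 0.28, adjusted p = 0.0676). Batf3, of the AP-1 family, had 8 and 0 reads without and 458 and 213 with it, and did not pass (adjusted p = 0.299). These genes were singled out after their values were seen.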
